A study of Saccharomyces cerevisiae with 45 samples.

Results

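The respiratory chain and ATP synthase of budding yeast (Saccharomyces cerevisiae) were followed here through 38 nuclear genes, of 5449 genes measured on the arrays. The genes were chosen by symbol and not by their values: 3 NADH dehydrogenases, 9 subunits of complex III, 2 isoforms of cytochrome c, 9 subunits of complex IV, 13 subunits of ATP synthase and 2 proteins that inhibit ATP synthase. All 38 were found in the probe annotation, each with 1 probe set.

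In baker's yeast, electrons enter the inner mitochondrial membrane through single-protein NADH dehydrogenases, since this species lacks the proton-pumping complex I of animals, and through succinate dehydrogenase (complex II). Ubiquinone carries them to complex III, cytochrome c to complex IV, and the proton gradient drives ATP synthase. On glucose the yeast ferments and represses many of these genes, and the isoforms CYC7 and COX5B are known as the forms made at low oxygen, CYC1 and COX5A as those of well-aerated cells.

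All groups shared a strain labelled BY4147, of mating type MATa with the alleles his3D1, leu2D0, met15D0 and ura3D0. Total RNA was hybridised to Affymetrix expression arrays after cells in rich medium (YPD) had been moved from 25 °C to a warmer water bath. The 25 °C control of batch A863 and the 37 °C times of 1, 3, 5, 7, 10, 15, 40 and 80 min had 3 arrays each. The 25 °C control of batch A927 and the times of 3, 5, 10 and 40 min at 42 °C had 2 each, as had 10 and 30 min at 46 °C. All 37 °C times but 80 min (batch A705) shared batch A863 with their control, the 42 °C times shared batch A927 with theirs, and the 46 °C arrays (batch P230) had no control of their own. Values are log2 intensities of the deposited table, so a difference of 1 is 2-fold. No label says whether replicate arrays came from separate cultures. Each p-value therefore reflects only how far these arrays spread, which may be technical, and the number of arrays limits the precision.

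The 4 arrays labelled 42 °C 1 and 80 min (batch A961) were left out, because the replicates within each pair correlated at 0.612 and 0.620, against 0.991 to 0.999 in the 41 arrays kept. In those 41 arrays URA3, LEU2 and MET17 (the gene of the met15 allele) stayed between 3.88 and 5.93, near the floor of unspecific signal, which was set partly from these genes (5.32 in batches A863 and A705, 5.59 in A927, 4.56 in P230). HIS3 read 10.27 to 12.38, and where its probe set lies relative to the his3D1 deletion is not given in the sources used here. ACT1 probe sets at the 3′ end read above those at the 5′ end by 0.49 to 0.61 in batch A863, by 0.92 at 37 °C 80 min, by 0.74 to 0.82 in batch A927 up to 10 min and by 1.33 at 42 °C 40 min. A higher value goes with more degraded RNA, and its part in the results at 37 °C 80 min and 42 °C 40 min was not tested, beyond the RIP1 probe sets described below. In bulk RNA, fewer cells with a transcript and less of it per cell cannot be told apart.

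The unheated controls themselves differed, and every comparison across temperatures depends on them. After joint quantile normalisation of all 41 arrays, 32 of the 38 genes read higher in control A927 than in control A863, by 0.36 to 2.54 on the log2 scale. The median difference was 0.57, against 0.04 over all genes. All 9 complex III genes and all 13 ATP synthase genes were on the higher side in A927. The 6 genes lower in A927 were NDI1, NDE1, NDE2, CYC7, COX5B and STF1. INH1 differed most, by 2.54, followed by CYC1 at 1.34 and COX4 and RIP1 at 1.06. These differences carry no test, since batch and culture cannot be told apart.

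At 37 °C the number of respiratory genes called higher grew to 15 min and was smaller afterwards. A gene counted as risen or fallen at a limma adjusted p under 0.05 over all 5449 genes with a change of at least 1 on the log2 scale. None of the 38 passed at 1 min, when 0.0367% of all genes were called higher. At 3 min 2 of 38 rose, against 1.93% of all genes, and at 5 min 7 of 38, against 5.6%. The counts were 8 of 38 at 7 min, against 7.87%, and 13 of 38 at 10 min, against 12%. At 15 min 20 of 38 rose, or more than every second gene, against 15.3% of all genes. At 40 min 6 of 38 were still called higher, against 7.08% of all genes, and at 80 min 7 of 38, against 5.65%. None of the 38 was called lower at any of these times, when the share of all genes called lower was 0.202% at 1 min, 1.32% at 3 min, 5.95% at 5 min, 8.15% at 7 min, 11.9% at 10 min, 14.3% at 15 min, 7.21% at 40 min and 2.31% at 80 min.

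The median change of the 38 genes went from 0.11 at 1 min and 0.24 at 5 min to 0.79 at 10 min and 1.03 at 15 min, then to 0.37 at 40 min. Over all genes the median lay between -0.03 and 0.06 throughout. At 15 min the 3 heated arrays stood above all 3 controls for 35 genes, below them for NDE1 and CYC1, and among them for ATP1. This count was not made over all genes, so it cannot be read as particular to the 38. The highest mean fell at 15 min for 33 of the 38 genes, and peak times were likewise not counted over all genes. NDI1 and CYT1 peaked at 10 min, CYC1 and ATP18 at 80 min, and NDE1, which was below its control throughout, came closest to it at 3 min.

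**Figure D1:**
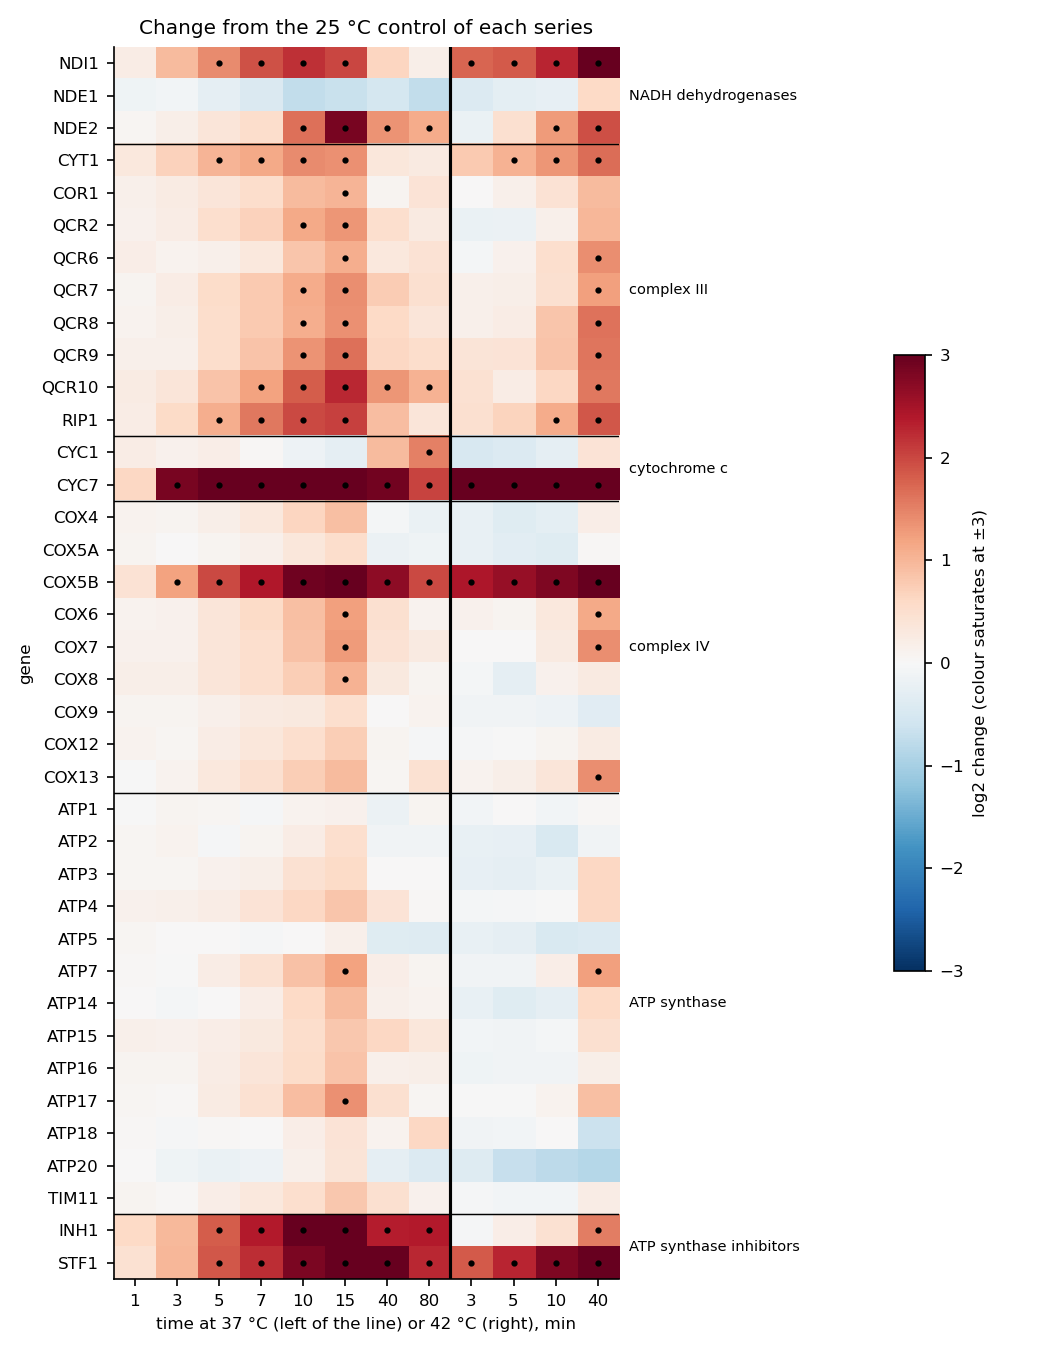
Log2 change from the 25 °C control for the 38 genes (vertical axis, grouped by complex) at each time in min at 37 °C (left of the line) and 42 °C (right), with colour saturating at ±3. Dots mark genes that passed the test. At 37 °C the colour is deepest at 15 min for most genes, at 42 °C at 40 min, and the ATP synthase block stays pale in both.

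At 42 °C most calls came late. At 3 min 4 of 38 were called higher, against 5.21% of all genes, and at 5 min 5 of 38, against 8.48%. The counts were 7 of 38 at 10 min, against 13.1%, and 17 of 38 at 40 min, against 23.3%. None was called lower, against 3.82%, 6.83%, 12.5% and 22.4% of all genes at these times. The median change was -0.06, -0.02 and 0.13 at the first 3 of these times and 0.93 at 40 min. At 40 min the 2 heated arrays were above both controls for 31 genes, below them for 5 and among them for 2. This count too was not made over all genes. The mean was highest at 40 min for 34 of the 38, again a count not made over all genes. Of the 20 genes that rose at 37 °C 15 min, 16 (80% of them) were among the 17 that rose at 42 °C 40 min (94.1% of those), COX13 being the one gene called at 42 °C 40 min but not at 37 °C 15 min. The overlap was not counted over all genes, so it cannot be read as particular to the 38. The longest time at 37 °C and 42 °C differs and no array was taken at 42 °C between 10 and 40 min.

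Among the dehydrogenases, 2 of 3 rose at both temperatures and the third did not. NDI1, the dehydrogenase that faces the matrix, read 8.94, 8.99 and 9.10 in the control arrays, 11.26, 11.18 and 11.17 at 37 °C 10 min and 9.14, 9.20 and 9.22 at 80 min. At 42 °C it went from 8.23 and 8.23 to 9.98 and 9.96 at 3 min and to 11.60 and 11.64 at 40 min. All heated arrays at these times lay above every control they were compared with, which for 37 °C 80 min was that of another batch. The change was 2.19 ± 0.07 (SE) at 37 °C 10 min and 3.39 ± 0.08 at 42 °C 40 min, with limma adjusted p = 1.66e-26 for the latter. NDI1 was called higher at 5 to 15 min at 37 °C and at all 4 times at 42 °C.

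NDE1 and NDE2 are the dehydrogenases that face outward and oxidise cytosolic NADH. NDE2 was near the floor in the controls (5.41, 5.34 and 5.84) and read 8.37, 8.35 and 8.37 at 37 °C 15 min, a rise of 2.84 ± 0.13. At 42 °C 3 min its mean, 5.41, was under the floor, and at 40 min its arrays read 7.68 and 7.38, a rise of 1.93 ± 0.16. NDE2 thus rose at both temperatures, later than NDI1. NDE1 read 12.38, 12.30 and 12.31 in the controls and 11.63, 11.72 and 11.59 at 37 °C 15 min. Its change was -0.68 ± 0.06 there and -0.74 at 80 min, with heated arrays below all controls but under the minimum change for a call. At 42 °C 40 min its change was 0.60.

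Complex III, which passes electrons from ubiquinone to cytochrome c, had calls that came mostly late. At 37 °C 0 of 9 measured subunits were called at 3 min, 2 at 5 min and 7 at 10 min, and at 42 °C 2 were called at 10 min. All 9 measured subunits rose at 37 °C 15 min, by 1.03 to 2.26 on the log2 scale with a median of 1.38, and 7 of 9 rose at 42 °C 40 min with a median of 1.59. RIP1, the Rieske iron-sulfur protein, read 9.92, 9.87 and 9.90 in the controls and 12.00, 11.86 and 11.97 at 37 °C 15 min. Its change was 2.05 ± 0.09, or 4.13-fold, and the arrays of the groups were far apart. At 42 °C RIP1 went from 11.03 and 10.82 to 12.81 and 12.76 at 40 min, a rise of 1.86 ± 0.12.

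The array design also holds RIP1 probe sets along the transcript, whose values bear on RNA quality. From the 5′ end through the middle to the 3′ end they changed by 2.15, 2.18 and 1.96 at 37 °C 15 min and by 1.85, 1.87 and 1.69 at 42 °C 40 min, so the rise was as large at the 5′ end. At 37 °C 80 min the changes were 0.03, 0.28 and 0.53, and the 3′ probe set was the highest.

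QCR10, a small subunit outside the catalytic core, read 10.52 in all 3 controls and 12.68, 12.89 and 12.77 at 37 °C 15 min, a rise of 2.26 ± 0.08. It was the complex III gene with the highest change there, and it was still called higher at 40 and 80 min (1.33 and 1.04). CYT1, the heme-bearing subunit that hands electrons to cytochrome c, rose earliest with RIP1, by 1.01 at 37 °C 5 min. That call was lost without control replicate 1 or replicate 2 at 5 min, when the change was 1.00 and 0.99, just under the minimum. The call of CYT1 at 42 °C 5 min (1.03) was likewise lost without replicate 2 of control A927, at 0.97. The core subunits COR1 and QCR2 rose by 1.03 and 1.34 at 37 °C 15 min. COR1 was no longer called without replicate 1 at 15 min, when its change was 0.99. At 42 °C 40 min COR1 changed by 0.96 and QCR2 by 1.00, just under the minimum, and these were the 2 subunits not called.

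The 2 cytochrome c genes moved in unlike ways. CYC7 (YEL039C) read 7.27, 7.10 and 7.15 in the controls, 9.97, 10.02 and 10.07 at 37 °C 3 min and 13.17, 13.15 and 13.28 at 15 min. It was then at 9.96, 10.13 and 10.08 by 40 min and at 9.21, 9.17 and 9.24 by 80 min. Every heated array from 1 min on was above all controls. The change was 6.03 ± 0.08 at 15 min, or 65.2-fold, with limma adjusted p = 6.25e-33.

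At 42 °C CYC7 read 6.23 and 6.35 in the controls, 11.80 and 11.63 at 3 min, 13.19 and 13.08 at 10 min and 13.98 and 14.05 at 40 min. The change reached 7.73 ± 0.10, or 212-fold, and showed no decline by 40 min. Between 37 °C 3 and 15 min CYC7 ranked 9th to 12th of 5449 genes by its change, and at 42 °C 5th to 8th. At those times no other of the 38 genes changed as much.

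CYC1 (YJR048W) read 10.65, 10.60 and 10.58 in the controls, 10.37, 10.36 and 10.26 at 37 °C 15 min and 12.12, 12.16 and 12.08 at 80 min. Its change was -0.28 ± 0.07 at 15 min and 0.94 at 40 min, neither called, and 1.51 ± 0.07 at 80 min, which was called. At 42 °C CYC1 went from 12.03 and 11.91 to 11.46 and 11.52 at 3 min and 12.51 and 12.27 at 40 min, changes of -0.48 and 0.42. From 37 °C 15 to 40 min CYC1 rose by 1.22 while CYC7 fell by 3.14.

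Within each array CYC7 minus CYC1 was therefore compared between heated and control arrays. This compares changes only, since probe sets of different genes have no common scale. The difference rose by 3.88 on average over the 21 heated arrays of batch A863 (exact permutation test, two-sided, 21 against 3 arrays, p = 0.000494) and by 6.64 over the 8 heated arrays of batch A927 (exact, 8 against 2, p = 0.0222). Each p is the smallest its design allows, and all heated arrays lay above all controls. By time, the change of the difference was 0.41 at 37 °C 1 min, 6.31 at 15 min, 1.94 at 40 min and 0.52 at 80 min. At 42 °C it was 5.91 at 3 min and 7.31 at 40 min.

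**Figure D2:**
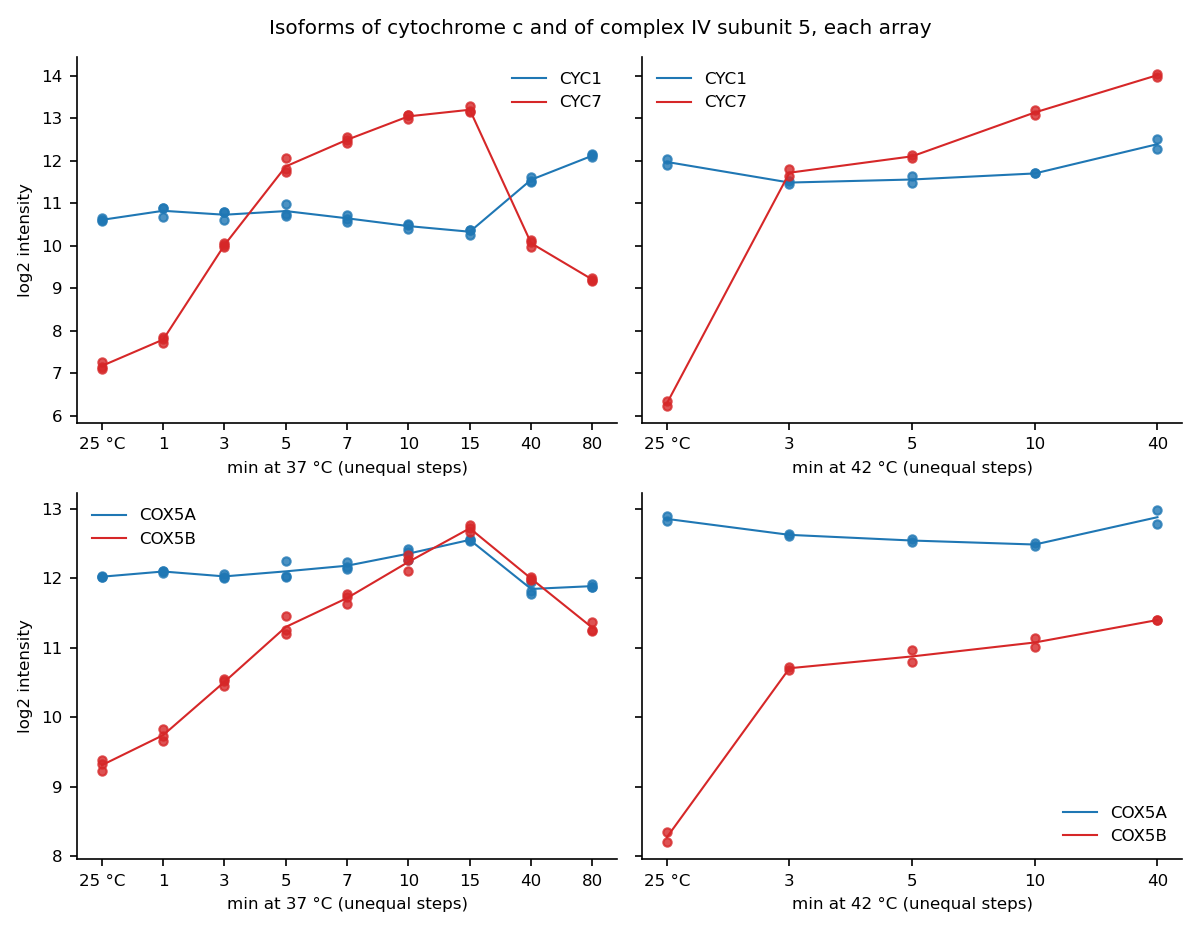
Log2 intensity of CYC1 and CYC7 (top) and COX5A and COX5B (bottom) in each array (points) with group means (lines), against time in min at 37 °C (left) and 42 °C (right). CYC7 and COX5B climb steeply from their controls and CYC1 and COX5A do not; heights of different genes are not comparable.

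In complex IV, the cytochrome c oxidase, the isoform COX5B had the highest change of the 9 subunits at both 37 °C 15 min and 42 °C 40 min. COX5B read 9.32, 9.23 and 9.38 in the controls, 12.67, 12.72 and 12.77 at 37 °C 15 min and 11.25, 11.37 and 11.24 at 80 min. The change was 3.41 ± 0.07 at 15 min, or 10.6-fold, and 1.98 at 80 min. At 42 °C it went from 8.35 and 8.20 to 10.73 and 10.68 at 3 min and 11.40 and 11.40 at 40 min, a rise of 3.13 ± 0.09. COX5B was called higher at every time from 3 min on at both temperatures.

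COX5A, the other isoform of the same subunit, read 12.03, 12.02 and 12.02 in the controls and 12.56, 12.54 and 12.56 at 37 °C 15 min, a change of 0.53 ± 0.07. At 42 °C 40 min its arrays (12.98 and 12.78) overlapped the controls (12.89 and 12.82), and the change was 0.02. COX5A was called at no time. COX5B minus COX5A rose by 2.01 over the 21 heated arrays of batch A863 (exact permutation test, two-sided, p = 0.000494) and by 2.96 over the 8 of batch A927 (exact, p = 0.0222), again the smallest values these designs allow, with all heated arrays above all controls. By time the change of the difference was 2.88 at 37 °C 15 min, 2.86 at 40 min and 2.11 at 80 min. It thus had not come back at 40 min, while the cytochrome c difference had dropped by then to 1.94.

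Beside COX5B, COX6, COX7 and COX8 rose at 37 °C 15 min by 1.24, 1.28 and 1.03, which made 4 of 9 complex IV genes with a median of 0.96. COX8 was not called with joint quantile normalisation, at 0.995. COX13 (0.96), COX4 (0.89), COX12 (0.74) and COX9 (0.50) stayed under the minimum change, with all heated arrays above all controls. At 42 °C 40 min 4 of 9 rose as well, COX6 by 1.14, COX7 by 1.40, COX13 by 1.39 and COX5B, but the median was 0.27. COX8 (0.27), COX12 (0.25) and COX4 (0.20) changed little, and COX9 by -0.33. The complex IV genes thus ranged from -0.33 to 3.13 at 42 °C 40 min, and the complex III genes from 0.96 to 1.86.

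Of the ATP synthase genes 2 of 13 rose at 37 °C 15 min, a share near the 15.3% of all genes called higher there. These were ATP17 by 1.38 ± 0.08 and ATP7 by 1.22 ± 0.06, and the median of the 13 was 0.80. ATP7 and ATP17 are subunits of the membrane and stalk parts of the enzyme. ATP7 read 11.53, 11.59 and 11.50 in the controls, 12.70, 12.76 and 12.81 at 15 min and 11.65, 11.63 and 11.58 at 80 min. At 42 °C 40 min, when 23.3% of all genes were called higher, ATP7 alone of the 13 rose, by 1.23, its arrays at 13.43 and 13.50 against controls of 12.17 and 12.30.

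The subunits of the catalytic head ranged widely below the minimum change at 37 °C 15 min. ATP1 (the alpha subunit) changed by 0.12, with heated arrays of 13.48, 13.28 and 13.39 among controls of 13.28, 13.27 and 13.23. ATP2 (beta) changed by 0.50, ATP3 (gamma) by 0.58, ATP15 (epsilon) by 0.82 and ATP16 (delta) by 0.86. Without a minimum change all 38 genes passed an adjusted p under 0.05 at 15 min, 36 of them higher. Most genes passed at that threshold, 2474 of all 5449 being higher and 2164 lower. For ATP1 (limma adjusted p = 0.0233) the heated and control arrays nevertheless overlapped.

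At 42 °C 40 min ATP20, ATP18 and ATP5 were lower than in the controls. ATP20 (subunit g, which takes part in joining ATP synthase into dimers) read 12.25 and 12.27 in the controls, 11.56 and 11.56 at 5 min and 11.37 and 11.42 at 40 min, a change of -0.86 ± 0.08. ATP18 changed by -0.65 and ATP5, in the peripheral stalk, by -0.42. None reached the minimum change for a call. Over both temperatures 11 of the 13 ATP synthase genes were never called higher, of 16 such genes among the 38. The share of all genes never called higher was not counted, so these counts cannot be set against it.

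**Figure D3:**
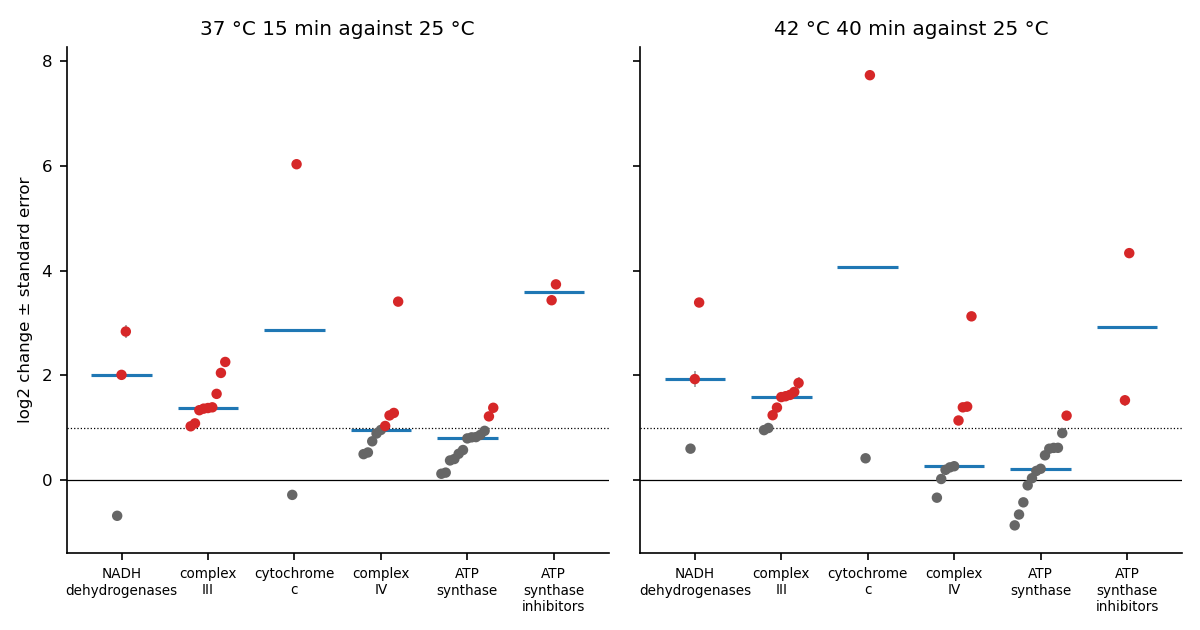
Log2 change with its standard error for each gene, by complex, at 37 °C 15 min and 42 °C 40 min against the 25 °C control; red points passed the test, blue bars are medians and the dotted line is the minimum change of 1. Complex III sits above or near the dotted line in both panels, with medians of 1.38 and 1.59, and ATP synthase mostly under it, with medians of 0.80 and 0.22.

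Both inhibitor proteins rose at 37 °C 15 min and 42 °C 40 min. INH1 blocks ATP hydrolysis by ATP synthase when the proton gradient fails, and STF1 is a related protein of the same kind. INH1 read 9.12, 8.97 and 9.03 in the controls, 12.74, 12.85 and 12.74 at 37 °C 15 min and 11.36, 11.39 and 11.49 at 80 min. Its change was 3.74 ± 0.09, or 13.3-fold, at 15 min and 2.37 at 80 min. STF1 read 9.42, 9.44 and 9.33 in the controls, 12.78, 12.95 and 12.75 at 15 min and 11.71, 11.67 and 11.62 at 80 min, with a change of 3.43 ± 0.06 at 15 min. Both were called higher from 5 min on, and their changes at 3 min were 0.98 and 0.99, just under the minimum. Without control replicate 1 both were called at 3 min, at 1.02 and 1.00, as they were without replicate 2 at 3 min, at 1.02 and 1.01. Without control replicate 2 STF1 was called, at 1.02.

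At 42 °C the inhibitors parted. STF1 went from 8.32 and 8.37 to 10.18 and 10.19 at 3 min and 12.67 and 12.68 at 40 min, a rise of 4.33 ± 0.08, or 20.1-fold. INH1 read 11.59 and 11.61 in this control, 11.57 and 11.55 at 3 min, 12.12 and 11.99 at 10 min and 13.17 and 13.09 at 40 min. Its change was -0.04 at 3 min, 0.45 at 10 min and 1.53 ± 0.11 at 40 min, the one time it was called. The control of batch A927 was already as high for INH1 as the 37 °C arrays at 7 min (11.49, 11.36 and 11.44).

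**Figure D4:**
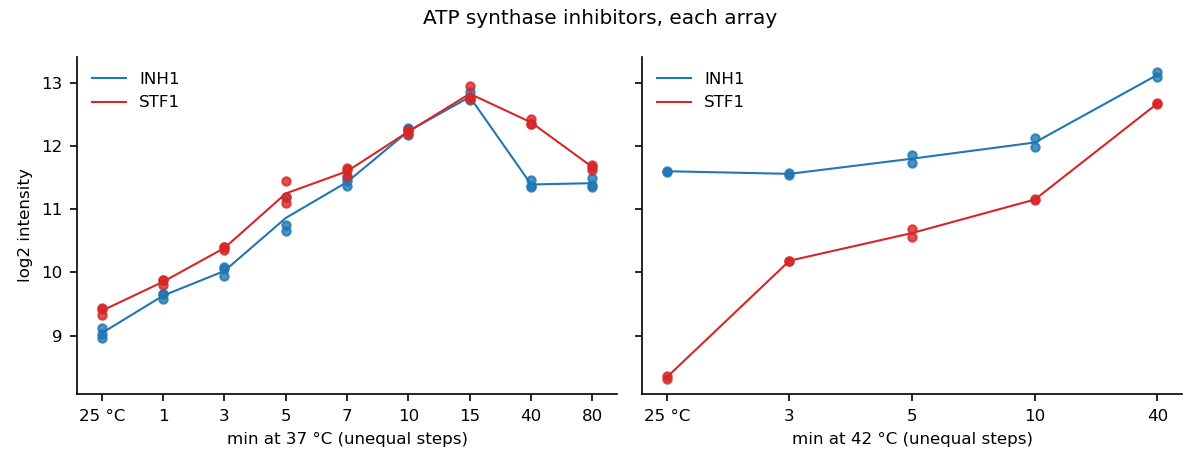
Log2 intensity of INH1 and STF1 in each array (points) with group means (lines) against time in min at 37 °C (left) and 42 °C (right). Both climb together at 37 °C; at 42 °C STF1 starts near 8.3 and INH1 starts near 11.6 in the unheated control.

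The change at 42 °C was then set against the change at 37 °C at the 4 times both had, each within its own batch. At 3 min 2 genes changed more at 42 °C, against 2.4% of all genes, and 1 changed less, against 0.257%. CYC7 differed by 2.58 ± 0.13, COX5B by 1.23 ± 0.11 and INH1 by -1.03 ± 0.14 (limma adjusted p = 1.24e-06). INH1 was not called without replicate 2 of control A863 (-0.99), nor without replicate 1 at 37 °C 3 min, just under the minimum. With all 45 arrays none of the 3 genes was called at 3 min, and with joint quantile normalisation 1 was. At 5 min CYC7 differed by 1.12 and INH1 by -1.62, where 2.92% of all genes changed more and 0.44% less. With all 45 arrays or with joint quantile normalisation 1 gene was called at 5 min, on the lower side.

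At 10 min no gene of the 38 was called as changing more at 42 °C, against 8.96% of all genes, and 2 as changing less, against 4.97%: QCR10 by -1.18 and INH1 by -2.74. The median difference was -0.57, and all but 2 of the 30 genes with an adjusted p under 0.05 were on the lower side. Of all 5449 genes, 1489 were on the higher side and 1861 on the lower side at that threshold. With all 45 arrays 1 gene was called at 10 min. INH1 had the lowest difference of all 5449 genes at 5 and at 10 min. Without replicate 2 of control A927, or without replicate 2 at 42 °C 10 min, 4 genes were called at 10 min, with QCR2 (-1.06 and -1.01) and CYC7 (1.03 and 1.03) added.

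These differences depend on the controls. With levels at 42 and 37 °C compared directly after joint quantile normalisation, without the controls, INH1 was higher at 42 °C by 1.56 at 3 min and 0.88 at 5 min and lower by 0.25 (-0.25) at 10 min. CYC7 differed by 0.14 at 5 min and COX5B by 0.21 at 3 min in that comparison, and QCR10 by -0.74 at 10 min, all under the minimum. At 10 min neither of the 2 calls was kept. Which of the controls is nearer to the cells before the shift cannot be told from these arrays.

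At 40 min 9 of 38 genes changed more at 42 °C, against 19.7% of all genes, and 0 less, against 19.6%. CYC7 differed by 4.84, NDI1 by 2.75, CYT1 and STF1 by 1.35, COX13 by 1.34, NDE1 by 1.12, QCR6 by 1.07 and QCR8 and ATP7 by 1.04. ATP7 was not called without replicate 1 of control A927, at 0.97. Levels compared directly gave 19 genes higher at 42 °C, 8 of the 9 among them, and STF1 at 0.29. The share over all genes was not counted for that comparison, so the 19 cannot be set against it. Before heating, control A927 already read above control A863 by a median of 0.57 over the 38 genes. The 9 genes are a share close to that over all genes.

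The later steps within a batch do not involve the controls. From 15 to 40 min at 37 °C 8 of 38 fell, against 6.96% of all genes, and CYC1 alone rose, against 9.12%. The genes that fell were CYC7 by 3.14, NDE2 by 1.48, INH1 by 1.38, NDI1 by 1.37, RIP1 by 1.12, CYT1 by 1.03 and QCR9 and ATP7 by 1.02. The calls of CYT1, QCR9 and ATP7 were lost when single arrays were left out. These were replicates 1 (CYT1, -0.99), 2 (QCR9, -0.98) and 3 (ATP7) at 15 min, and replicates 1 (QCR9, -0.98) and 3 (CYT1 and ATP7) at 40 min. STF1 (-0.45) and COX5B (-0.72) stayed closer to their levels at 15 min.

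From 10 to 40 min at 42 °C 6 of 38 rose, against 10.6% of all genes, and 0 fell, against 13%. STF1 rose by 1.52, COX7 by 1.12, NDI1 by 1.11, INH1 by 1.07, ATP7 by 1.03 and COX13 by 1.02. COX13 and ATP7 were not called without replicate 2 at 10 min, at 0.98 each, nor without replicate 2 at 40 min, at 0.99 each. CYC7, already called higher at 3 min, changed by a further 0.88.

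The comparison of 37 °C 80 min with the control of batch A863 crosses batches. The 7 genes called there were CYC7 (2.03), COX5B (1.98), INH1 (2.37), STF1 (2.27), CYC1 (1.51), NDE2 (1.12) and QCR10 (1.04). No valid count was obtained against the control of batch A927. By the array values given above, CYC7, COX5B and STF1 at 80 min lay above that control. CYC1 lay slightly above it and INH1 below it. The hybridisation control probe sets averaged 9.83 at 37 °C 80 min and 11.35 in control A863, and their part in these values was not tested.

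At 46 °C the respiratory genes were described by level, with no test against 25 °C, because the batch had no control and its values had a distribution of their own. After joint quantile normalisation 12 of 38 genes at 10 min and 13 at 30 min read above both controls. Below both were 9 and 9, and between them 17 and 16. These counts were not made over all genes, so they cannot be read as particular to the 38. The median over all genes was -0.08 against control A863 at both times, and -0.12 and -0.11 against control A927. CYC7 read 11.47 and 11.30 at 10 min and 11.59 and 11.19 at 30 min, and was above control A863 by 4.44 and above control A927 by 5.10 at 10 min. COX5B was above them by 1.82 and 2.56, STF1 by 1.55 and 2.31, and NDI1 by 0.94 and 1.41.

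The genes that stood highest at 46 °C were thus the isoforms CYC7 and COX5B and the inhibitor STF1, which were at least 2-fold above both controls at 10 and at 30 min, joined at 30 min by NDI1 (1.09 and 1.56). INH1 lay 2.60 above control A863 and 0.06 above control A927. Of the 9 complex III genes, 4 were above both controls at 10 min and 5 at 30 min, and none was below both. Of the 13 ATP synthase genes 0 and 1 were above both and 6 and 6 were below both. ATP5 was among the latter, lower than the controls at 30 min (-0.96 and -1.54). The counts by complex were likewise not made over all genes. Between 10 and 30 min at 46 °C none of the 38 was called by limma, against 0% of all genes higher and 0.239% lower. Without a minimum change 7 were higher and 8 lower, against 1232 and 1293 of all 5449 genes.

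**Figure D5:**
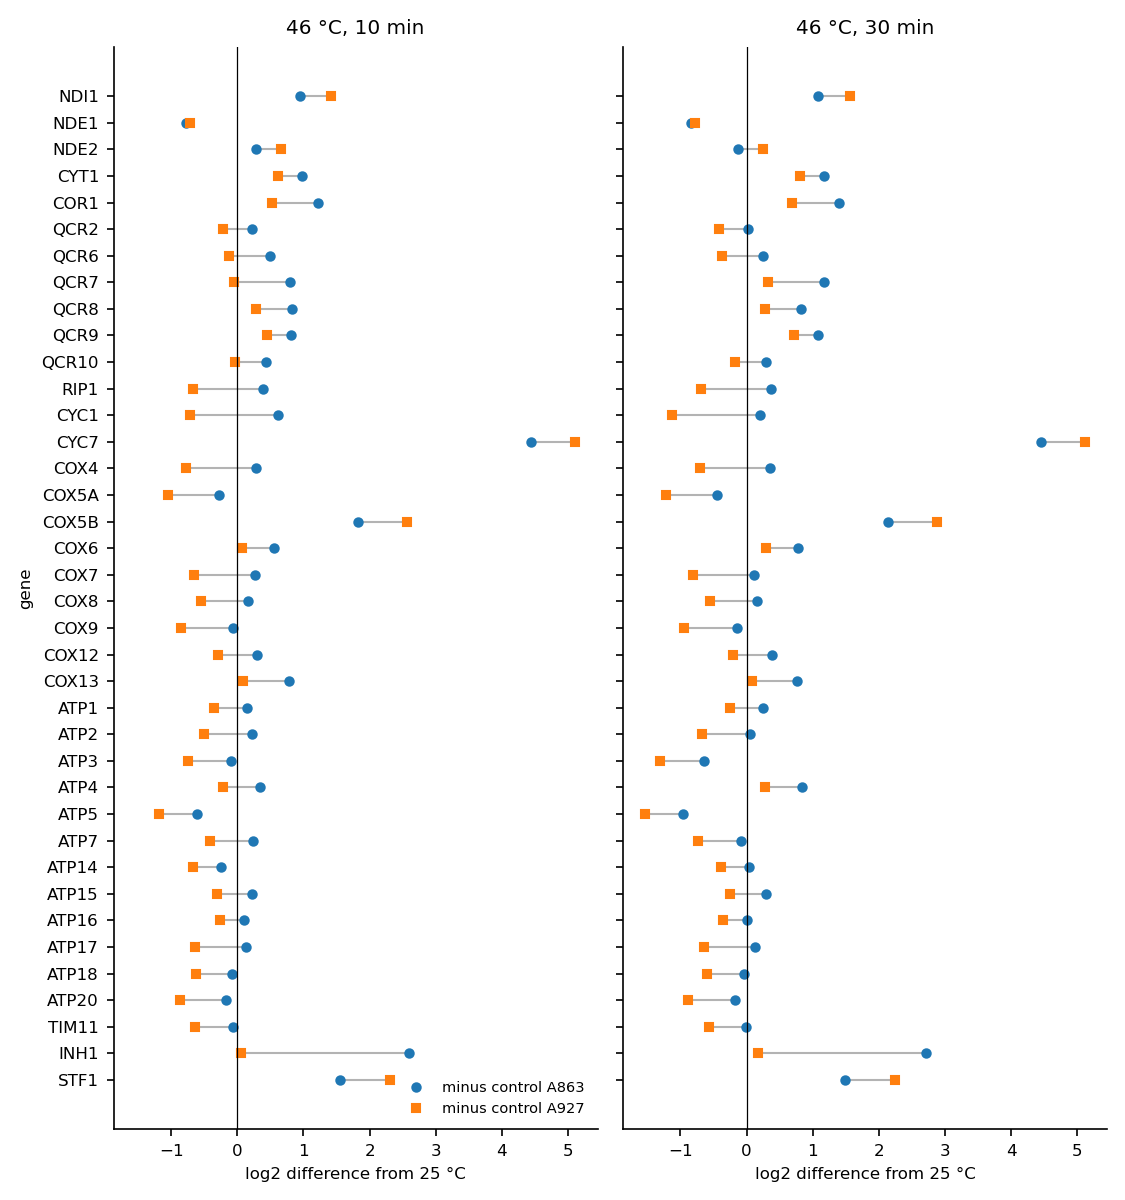
Difference in log2 level between the 46 °C arrays and each 25 °C control after joint quantile normalisation (horizontal axis), for the 38 genes at 10 min (left) and 30 min (right); circles are against control A863 and squares against control A927. CYC7, COX5B, STF1 and NDI1 are clear of both controls. At each time 6 of the 13 ATP synthase genes lie below both controls, a count not made over all genes.

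Other genes of the pathway were counted from 10 lists, of which 8 genes were not measured, among them all 7 subunits encoded in the mitochondrial genome. Their counts are to be read against the 15.3% of all genes called higher and 14.3% called lower at 37 °C 15 min, and the 23.3% and 22.4% at 42 °C 40 min. Of complex II and other electron donors 6 of 7 rose at 37 °C 15 min with a median of 1.85, and 5 of 7 at 42 °C 40 min. CYB2, which passes electrons from lactate to cytochrome c, rose by 4.34 and 4.97, and GUT2, the mitochondrial glycerol 3-phosphate dehydrogenase, by 1.99 and 2.52. The 4 subunits of complex II were among those that rose at 37 °C.

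For the assembly of complex IV 8 of 20 rose at 37 °C 15 min, PET117 by 1.93, and 7 of 20 rose and 1 (RCF2, named after its values were seen) changed by -1.81 at 42 °C 40 min. For complex III and cytochrome c assembly 1 of 8 rose at each, and for ATP synthase assembly 0 and 1 of 6, none of which is above the share over all genes. Coenzyme Q synthesis had 3 of 9 at each, and the activators of mitochondrial translation 1 and 2 of 11, AEP3 by 3.27 at 42 °C 40 min. Among carriers of ADP, ATP and phosphate and outer membrane channels 2 and 3 of 7 rose, PIC2, a mitochondrial phosphate and copper carrier, by 4.65 at 42 °C 40 min.

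Among the regulators of respiratory genes HAP4 changed more at 42 °C than at 37 °C. HAP4, the activating subunit of the Hap2/3/4/5 complex that drives respiratory genes, read 10.93, 10.86 and 10.75 in the controls, 11.86, 12.01 and 12.03 at 37 °C 5 min and 10.62, 10.28 and 10.64 at 15 min. Its rise of 1.12 at 5 min was thus over by 15 min, when most respiratory genes peaked, with a change of -0.33. At 37 °C 10 min, when NDI1 and CYT1 peaked, HAP4 still read 11.42, 11.37 and 11.44. At 42 °C it went from 10.06 and 10.19 to 13.22 and 13.20 at 10 min and 13.12 and 13.32 at 40 min, a rise of 3.09 at both. The change of HAP4 at 42 °C exceeded that at 37 °C by 2.52 at 10 min and 3.57 at 40 min. The controls differed for HAP4, with means of 10.85 in A863 and 10.13 in A927, so these differences depend in part on them.

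In all 1 of 10 regulators rose at 37 °C 15 min (HAP5, by 1.02), no more than the 15.3% of all genes, and 7 of 10 rose at 42 °C 40 min, against 23.3%. HAP2 rose there by 1.83 and ROX1, a repressor of genes for low oxygen, by 1.52, whereas ROX1 changed by -0.75 at 37 °C 15 min. The controls differed for ROX1, with means of 10.78 in A863 and 9.24 in A927. Its mean at 42 °C 40 min was 10.76, so its rise depends on the control used. Of 9 other genes known to be made at low oxygen, none was called higher at 37 °C 15 min, against 15.3% of all genes, or at 42 °C 40 min, against 23.3%. Earlier at 42 °C, when CYC7 and COX5B were already called, 1 of the 9 was called higher at 3 min, against 5.21% of all genes, 2 at 5 min, against 8.48%, and 2 at 10 min, against 13.1%. Without a minimum change 8 of the 9 were higher at 3 and at 5 min, with median changes of 0.47 and 0.70. At that looser threshold 1286 of all 5449 genes were higher at 3 min and 1675 at 5 min. OLE1, the fatty acid desaturase, fell by 2.23 at 37 °C 15 min and by 1.51 at 42 °C 40 min. HMG2, ANB1 and AAC3 are named here after their values were seen. HMG2 fell by 1.33 at 42 °C 40 min, and ANB1 and AAC3 were the 2 that rose at 42 °C 10 min, by 1.85 and 1.19.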

How the data were processed

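The deposited table holds log2 intensities of 5900 probe sets on 45 arrays, for which the submitters' processing notes name RMA and affy, with versions and build not given in the sources used here. This method scales arrays to each other, so overall changes in messenger RNA are removed, and small changes near background are compressed. The values fell into 3 sets of arrays with distributions of their own, batches A863 and A705, A927 and A961, and P230, with array medians of 10.20 to 10.26, 10.12 to 10.20 and 9.85 to 9.86. Of the probe sets, 5498 had 1 gene symbol, and the brightest one stood for each of 47 genes with several, which left 5449 genes.

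Group means over 41 arrays were modelled in limma 3.58.1 (R 4.3.3), with moderated variances on 25 residual degrees of freedom. The tests were two-sided, and p-values of each of 19 comparisons were adjusted over all genes by Benjamini-Hochberg. Genes were called at an adjusted p below 0.05 where the log2 change reached 1. The floor was the 95th percentile of 29 probe sets, array controls with no expected target and the strain's URA3, LEU2 and MET17. Isoform differences were tested by exact permutation over arrays in Python 3.11.15. Members could all be named; of the other lists, the 4 with the largest change per comparison and any regulator. The fits were tested on simulated data. The members, lists and alternatives were chosen with earlier results of these data known. Alternatives covered the arrays in the fit, the prior variance, normalisation, the floor, the minimum change, the gene summary, the replicate block, the control and each array left out in turn.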

Additional observations from a re-analysis of the deposited data

Results flagged for a closer look

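The change at 42 °C differed from that at 37 °C by the test of the difference itself for 16 combinations of gene and time. CYC7 differed by 2.58, 1.12 and 4.84 at 3, 5 and 40 min and COX5B by 1.23 at 3 min. INH1 differed by -1.03, -1.62 and -2.74 at 3, 5 and 10 min, and QCR10 by -1.18 at 10 min. At 40 min NDI1 differed by 2.75, NDE1 by 1.12, CYT1 by 1.35 and QCR6 by 1.07. At that time QCR8 and ATP7 differed by 1.04, COX13 by 1.34 and STF1 by 1.35. Of all genes 2.4, 2.92, 8.96 and 19.7% changed more at 3, 5, 10 and 40 min, and 0.257, 0.44, 4.97 and 19.6% less. These differences depend on the controls. With levels compared directly after joint quantile normalisation, INH1 was higher at 42 °C by 1.56 at 3 min and 0.88 at 5 min. CYC7 at 5 min, COX5B at 3 min and STF1 at 40 min differed there by 0.14, 0.21 and 0.29.

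In the 4 arrays of batch A961, which no comparison used, CYC7 stood above the highest control of batch A927 (6.35). It read 7.88 and 14.04 in the arrays labelled 42 °C 1 min and 13.99 and 8.99 in those labelled 80 min, so each label held an array near the level of 42 °C 40 min and one far below it.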

How the results depend on the processing

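Every count of members called kept within 1.5 times its value with an intensity trend, with array medians aligned, with genes below the floor left out and with the mean of probe sets. Replicate numbers did not pair the arrays of batches A863 and A927 (median correlation of same-numbered deviations 0.04 and 0.00). In P230 the correlation was 0.58 for same-numbered arrays. With 2 arrays per group the value for different numbers, -0.58, follows from it and adds nothing on pairing. With the replicate block all 19 counts were the same, 20 at 37 °C 15 min and 17 at 42 °C 40 min. Without a minimum change the counts were 10, 15, 31, 32, 34, 38, 30 and 25 at 37 °C from 1 to 80 min, 19, 23, 28 and 35 at 42 °C, 12, 27, 30 and 29 for the differences between temperatures, 38 and 33 for the later steps at 37 and 42 °C and 15 at 46 °C. Large shares of all 5449 genes passed as well, with 2474 higher and 2164 lower at 37 °C 15 min. At 42 °C 40 min 2402 were higher and 2340 lower. With all 45 arrays the differences at 3, 5 and 10 min had 0, 1 and 1 calls, and with joint quantile normalisation those at 3 and 5 min had 1 and 1. Joint quantile normalisation also turned ATP2 at 42 °C 40 min from -0.10 to 0.067, neither called. Alternatives added after seeing the data were levels compared directly, which gave 0 calls for the difference at 5 min and 19 at 40 min and turned INH1 to 1.56 and 0.88 at 3 and 5 min, the fits within 1 set of arrays, which moved no count by over 1.5 times, and joint quantile normalisation with control A927. For 37 °C 80 min against control A927 no valid count was obtained, with or without joint normalisation. Leaving out single arrays gave 2 to 4 calls at 37 °C 3 min and 2 to 4 for the difference at 10 min. The isoform differences at 42 °C without a control array were 6.52 to 6.76 and 2.93 to 3.00, where the smallest p the exact test can give is 0.111. Other causes were not tested.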
